A study of Mus musculus with 14 samples.

Results

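The gene Gper1 encodes GPR30, a G protein-coupled estrogen receptor of cell membranes that neurons, astrocytes and other cells of the hippocampus make. The mice described here are NG-KO mice, which carry GPR30 fl/fl alleles and an NSE-Cre transgene that deletes GPR30 in neurons, and the WT mice they were set against. NSE is neuron-specific enolase, the product of Eno2, so the Cre recombinase was driven by the promoter of a gene that is itself measured below. All were female mice at 10 weeks of age, from lines that the paper says were kept on the C57BL/6J background. Poly(A) RNA of the whole hippocampus was sequenced from 4 NG-KO and 3 WT mice, 1 library per mouse, 7 of the 14 libraries of the series. The other 7 came from 4 AG-KO mice (GPR30 fl/fl with GFAP-Cre, the deletion in astrocytes) and 3 Δ3102 mice (deletion in all cells). They share the stated background, sex and age, entered the same fit and are given where NG-KO mice were compared with them directly. WT mice carried neither the floxed alleles nor Cre. Cre-only or floxed-only mice were not analysed here, so the loss of GPR30, the transgene and the floxed alleles cannot be told apart in any difference between NG-KO and WT mice.

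The hippocampus holds excitatory pyramidal and granule neurons, inhibitory interneurons and a large population of glia. Myelin, the sheath around axons, is made by oligodendrocytes, and astrocytes take up transmitter and supply neurons. In RNA of undissociated tissue these sources are pooled, so fewer cells of a type and less RNA per cell cannot be told apart.

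Counts per library ran from 48235215 to 62669865 in the 7 libraries. A gene was tested if its FPKM, the number of fragments scaled by transcript length and library depth, reached 0.5 in 3 or more of these libraries. This kept 16769 of 55450 genes, and their log2 fold changes, NG-KO over WT, had a median of -0.01. Levels are given below as FPKM and differences as log2 fold changes of counts with their standard error (SE). The 20 listed genes each of neurons, astrocytes, oligodendrocytes and microglia all reached this level. So did 19 of 20 liver genes, a list that includes Trf and Ass1, which brain cells also express. Without these, a choice made after the values were seen, the summed FPKM of the list was 9.66, 224, 176 and 176 in the NG-KO mice, against 639, 548 and 590 in the WT mice. Transcripts of the choroid plexus, the epithelium in the ventricles that makes cerebrospinal fluid, summed to 30.9 to 84.5 FPKM in NG-KO and 108 to 192 in WT mice. NG-KO replicate 1 was lowest in both, and WT replicate 2 was highest in myelin transcripts. Listed genes of testis and skeletal muscle were also present, varied widely between mice of each genotype and overlapped between the groups.

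Gper1 (ENSMUSG00000053647, GRCm38 chromosome 5, 139423151 to 139427800, plus strand) was not separated between the groups. Its FPKM was 1.10, 1.41, 0.975 and 1.12 in the NG-KO mice, against 0.797, 1.15 and 3.05 in the WT mice, from 178, 222, 141 and 154 counts in NG-KO and 132, 207 and 490 counts in WT mice. All 4 NG-KO mice lay within the range of the WT mice, and WT replicate 3 was the highest of all. The log2 fold change was -0.51 (SE 0.56, edgeR adjusted p = 0.833), and 0.24 without WT replicate 3. An exact two-sided permutation test of FPKM gave p = 0.686, where 4 against 3 mice cannot go below 0.0571. Δ3102 mice, in which the gene is deleted throughout, had 0.0686, 0.145 and 0.0124 FPKM. AG-KO mice, at 0.540 to 1.38 FPKM, overlapped WT mice. The neuronal deletion was thus not visible in this RNA of whole tissue. Other cells also make Gper1, and their part in these values was not tested. The study reports that in situ hybridization with immunostaining showed loss of this mRNA from hippocampal neurons of NG-KO mice. NG-KO is the labelled genotype throughout, and whether the counted exons lie within the floxed segment was not examined.

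Gpr146, an orphan G protein-coupled receptor that lies 26.7 kb from Gper1, was higher in every NG-KO mouse than in every WT mouse. It had 2.53, 2.68, 1.57 and 2.33 FPKM in NG-KO mice, against 0.0462, 0.516 and 0.935 in WT mice (log2 fold change 2.21, SE 0.60). This difference did not pass in edgeR (adjusted p = 0.272) and passed in DESeq2 (adjusted p = 0.00737). Gpr146 passed the filter of 0.5 FPKM in 3 libraries only with the NG-KO mice, so the difference follows in part from the filter. Levels were similar in AG-KO mice, at 2.32 to 3.27 FPKM, and in Δ3102 mice, at 2.83 to 2.90 FPKM, so the 3 WT mice stood apart from the 11 others. Of the 27 tested genes within 1 Mb of Gper1, 0 were called in edgeR, 2 had an unadjusted p under 0.05, both higher, and 1 passed in DESeq2. Over all genes 4.57% were higher at that p and 0.524% were called higher in DESeq2.

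**Figure D1:**
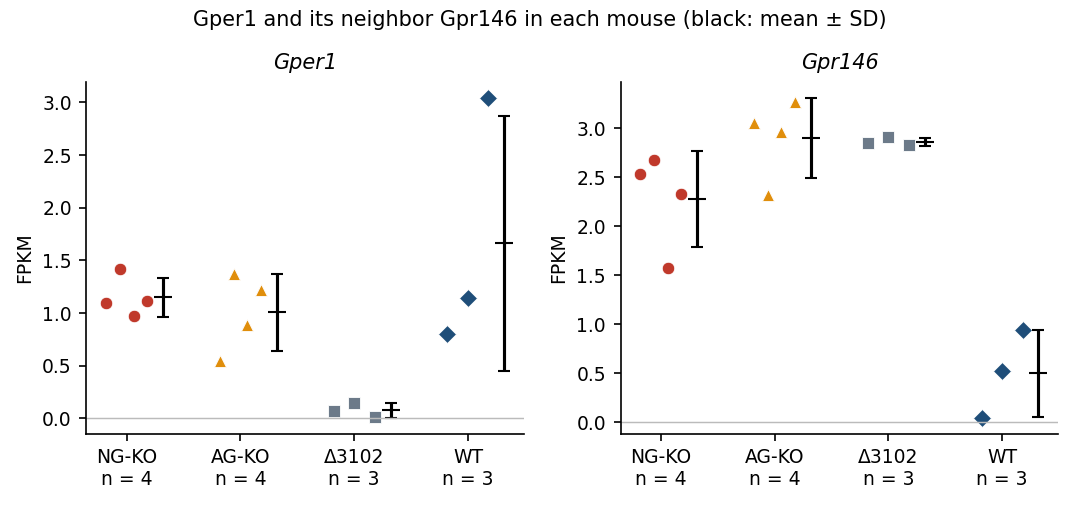
FPKM of Gper1 (left) and of its neighbor Gpr146 (right) in each mouse, by genotype, with the mean and SD of each group in black. Gper1 overlaps between NG-KO and WT mice and lies at or below 0.145 FPKM in Δ3102 mice, and Gpr146 is at least 1.57 FPKM in NG-KO and at most 0.935 FPKM in WT mice.

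Between NG-KO and WT mice, edgeR called 13 genes (adjusted p under 0.05), 0.0775% of those tested. Gm13394, Alad, Invs, Pisd-ps1, Adgrl1 and Eno2 were higher (6 genes, 0.0358%), and Gapdh-ps15, Gm10284, Gm8098, Dubr, Zkscan3, H2afz and Tmod1 were lower (7 genes, 0.0417%). At an unadjusted p under 0.05 there were 1554 (9.27%), 767 higher (4.57%) and 787 lower (4.69%). DESeq2 called 157 of the 16412 genes to which it gave an adjusted p (0.957%), 86 higher (0.524%) and 71 lower (0.433%). The groups did not overlap in FPKM for 1869 genes (11.1%), among them all 13. Leaving out WT replicate 2 or Δ3102 replicate 3 left 8 calls, and leaving out Δ3102 replicate 1 or 2 left 7. Of the 13, Gm13394, Gapdh-ps15, Gm10284, Alad and Invs were called in all 22 other settings tried, which left out a library or changed the filter, scaling, tool or samples.

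**Figure D2:**
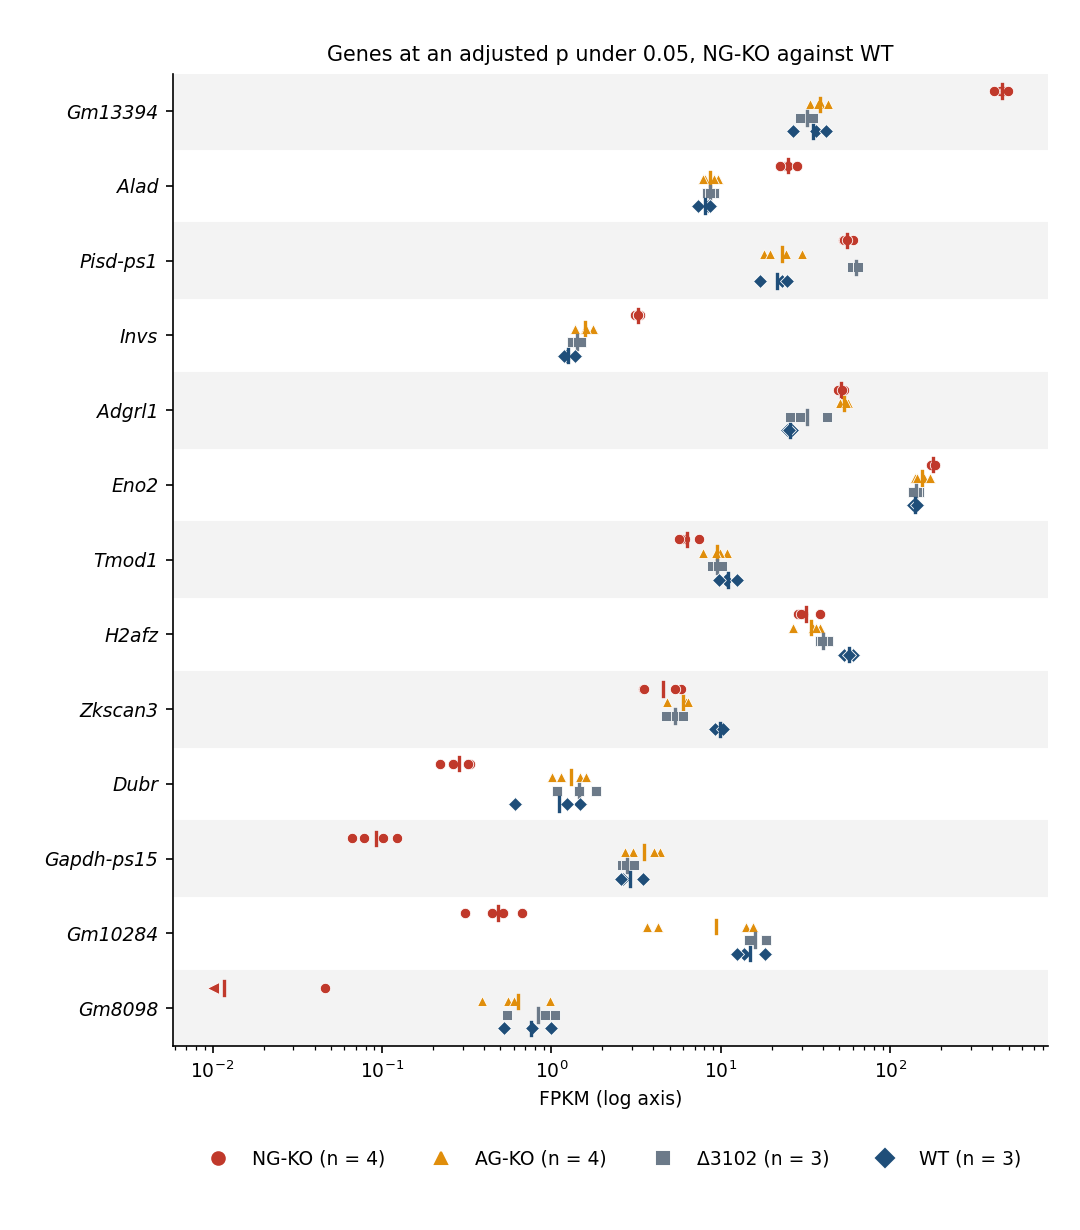
FPKM on a log axis of the 13 called genes, in order of their log2 fold change, in each of the 14 libraries. Points are mice, short lines are group means, and left-pointing triangles mark values listed at 0.0001 FPKM. NG-KO and WT mice do not overlap in any of the 13. In Adgrl1 NG-KO mice lie with AG-KO mice and in Pisd-ps1 with Δ3102 mice.

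Of these, 3 are copies of Gapdh, the glycolytic enzyme glyceraldehyde-3-phosphate dehydrogenase. Gm13394 (ENSMUSG00000083773, chromosome 2, 28933610 to 28934609, minus strand) is a processed pseudogene. It had 28351, 29387, 23254 and 26746 counts in the NG-KO mice, against 2385, 1880 and 2625 counts in the WT mice. That is 445, 476, 409 and 494 FPKM in NG-KO and 36.6, 26.5 and 41.4 FPKM in WT mice, a log2 fold change of 3.72 (SE 0.16, edgeR adjusted p = 1.10e-07). AG-KO and Δ3102 mice stood with WT mice, and NG-KO mice differed from both (log2 fold changes 3.55 and 3.82). Gapdh itself (chromosome 6, 125161715 to 125166467, minus strand) had 25.0, 32.5, 31.6 and 37.1 FPKM in NG-KO and 29.7, 27.0 and 36.1 FPKM in WT mice, a log2 fold change of 0.04 (SE 0.13, edgeR adjusted p = 0.952).

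Over the annotated length of Gm13394 a single base separates it from the Gapdh transcript, A346C, counted from the first base of the start codon. The stretch from position 316 to 376 is shown for both, on the coding strand of GRCm38, with that base in capitals, because these letters are what tells their reads apart:
Gapdh: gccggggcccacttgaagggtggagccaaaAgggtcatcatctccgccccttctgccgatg
Gm13394: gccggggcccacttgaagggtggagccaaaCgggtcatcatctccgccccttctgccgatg
Within the copied length a read that misses position 346 fits both genes, so the count of each is uncertain. The other called copies do not carry A346C and were lower in NG-KO mice. Gapdh-ps15 (chromosome Y, 38619783 to 38620784), an annotated copy on a chromosome that female mice do not carry, had 7, 8, 5 and 4 counts in NG-KO and 173, 182 and 221 counts in WT mice (log2 fold change -4.81, SE 0.30, edgeR adjusted p = 6.94e-06). Gm10284 (chromosome 8, 57550299 to 57551303) had 34, 20, 39 and 25 counts in NG-KO and 902, 1298 and 796 counts in WT mice (log2 fold change -4.88, SE 0.49, edgeR adjusted p = 7.30e-04). Of the tested copies without a call, 3 had an unadjusted p under 0.05 and are named after their values were seen. Gm2574 was at 3.26 to 4.41 FPKM in NG-KO and 8.31 to 10.6 FPKM in WT mice (edgeR adjusted p = 0.0670). The others went the opposite way, Gm12033 at 133 to 169 FPKM in NG-KO and 70.8 to 97.5 FPKM in WT mice (log2 fold change 0.85, SE 0.22, edgeR adjusted p = 0.257), and Gm12537 at 3.496 to 8.06 FPKM in NG-KO and 2.38 to 2.63 FPKM in WT mice (edgeR adjusted p = 0.448). Over the copied length Gapdh-ps15 and Gm10284 match Gapdh in 99.5% and 99.3% of bases.

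The annotation holds 71 genes with at least 95% identity to the Gapdh transcript over at least 500 bases, Gapdh included. Of these 36 were tested, 1 was called higher and 2 lower, beside 0.0358% and 0.0417% of all genes. Summed over the family, NG-KO mice had 1896, 2041, 1900 and 2164 CPM (counts scaled to library size), against 1481, 1399 and 1431 in WT mice. Without Gm13394 the sums were 1397 to 1610 in NG-KO and 1369 to 1439 in WT mice, and these overlap. The separation of the family sums therefore rests on the counts given to Gm13394, which outnumber those missing from Gapdh-ps15 and Gm10284.

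**Figure D3:**
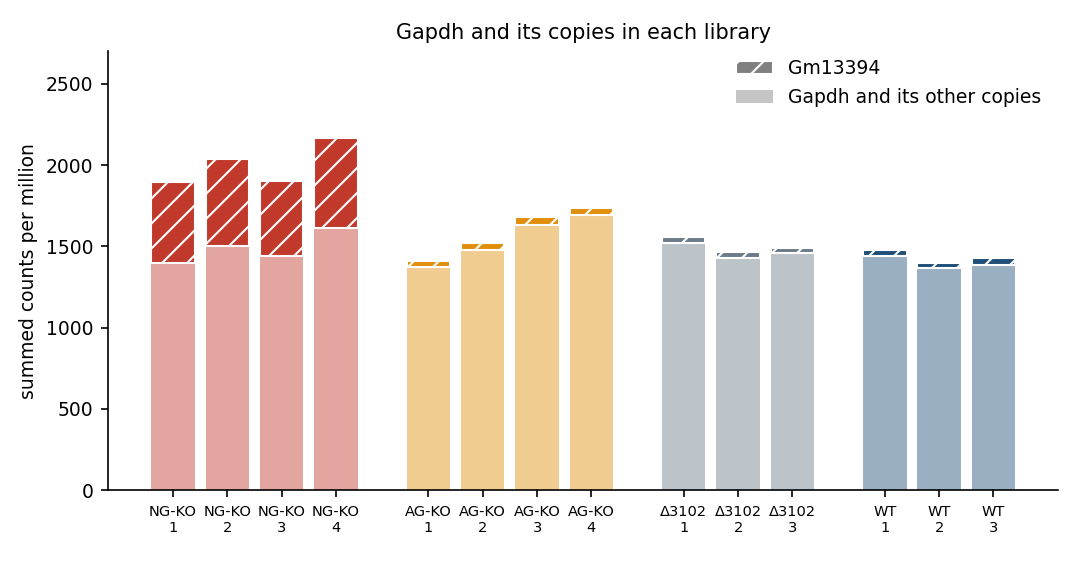
CPM summed over Gapdh and its annotated copies in each of the 14 libraries, with the part given to Gm13394 hatched. The 4 NG-KO libraries reach 1896 to 2164 in sum and the 3 WT libraries 1399 to 1481, and without the hatched part the groups overlap.

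Alad, which encodes the second enzyme of heme synthesis, 5-aminolevulinate dehydratase, was higher in all NG-KO mice. Its FPKM was 24.3, 24.8, 22.3 and 28.3 in NG-KO mice, against 8.36, 8.63 and 7.32 in WT mice (log2 fold change 1.63, SE 0.11, edgeR adjusted p = 1.61e-05). AG-KO mice, at 7.80 to 9.62 FPKM, and Δ3102 mice, at 8.31 to 9.10 FPKM, lay near WT mice, and NG-KO mice differed from both (log2 fold changes 1.501 and 1.53, edgeR adjusted p = 1.22e-05 and 3.32e-05). The next gene on the chromosome, Hdhd3, a haloacid dehalogenase-like hydrolase 5.7 kb from Alad, had 7.63, 9.78, 6.97 and 11.3 FPKM in NG-KO and 3.72, 3.32 and 2.58 FPKM in WT mice. Its log2 fold change of 1.48 (SE 0.32) did not pass against WT mice (edgeR adjusted p = 0.172, DESeq2 adjusted p = 0.00164) and passed against AG-KO mice (log2 fold change 1.9, edgeR adjusted p = 0.0253). Alas2, the red cell enzyme of the first step of the same pathway, was at 0.392 to 0.804 FPKM in NG-KO and 1.45 to 2.63 FPKM in WT mice (edgeR adjusted p = 0.256).

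Since Alad and Hdhd3 lie side by side on the minus strand, their RefSeq promoters, 250 bases before to 50 after an annotated start, are shown from 5′ to 3′ of that strand on GRCm38.p6. Capitals mark TGACG, or CGTCA where it lies on the other strand. TGACG is the shorter form of TGACGTCA, the cAMP response element that CREB binds, and every TGACGTCA contains it on both strands. The first is the upstream of 2 Alad starts (chr4:62520014-62520313) and the second that of Hdhd3 (chr4:62502151-62502450):
Alad: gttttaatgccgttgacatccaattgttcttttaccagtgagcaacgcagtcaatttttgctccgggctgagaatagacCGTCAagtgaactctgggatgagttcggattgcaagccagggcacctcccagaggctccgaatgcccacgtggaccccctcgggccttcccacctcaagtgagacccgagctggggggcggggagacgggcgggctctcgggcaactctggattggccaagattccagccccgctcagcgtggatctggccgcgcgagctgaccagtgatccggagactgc
Hdhd3: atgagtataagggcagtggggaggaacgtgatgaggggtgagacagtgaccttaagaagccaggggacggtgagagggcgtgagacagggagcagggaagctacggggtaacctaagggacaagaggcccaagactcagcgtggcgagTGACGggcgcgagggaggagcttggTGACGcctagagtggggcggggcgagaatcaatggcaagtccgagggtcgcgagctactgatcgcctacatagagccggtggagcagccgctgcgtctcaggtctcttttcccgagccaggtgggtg
Of the 13 called genes, 8 were in the RefSeq table, with 9 promoters. None of the 9 holds TGACGTCA and 1, this Alad promoter, holds TGACG. Among all 32851 promoters 1.79% hold TGACGTCA and 20.8% TGACG.

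Invs and Tmod1 lie on the same chromosome. Invs encodes inversin, a protein of the primary cilium. It had 3.12, 3.33, 3.22 and 3.25 FPKM in NG-KO and 1.23, 1.18 and 1.37 FPKM in WT mice, with little spread within either group (log2 fold change 1.37, SE 0.10, edgeR adjusted p = 1.80e-05). NG-KO mice also differed in Invs from AG-KO and Δ3102 mice (log2 fold changes 1.01 and 1.20). Tmod1, a cap of actin filaments, was lower, at 6.17, 5.79, 7.44 and 5.67 FPKM in NG-KO and 10.8, 12.4 and 9.81 FPKM in WT mice (log2 fold change -0.80, SE 0.13, edgeR adjusted p = 0.0411). Tmod1 was called in 10 of 22 other settings. The call was lost with no filter on low genes and with the 2 groups compared alone. It was also lost without WT replicate 1 or 2, Δ3102 replicate 1, 2 or 3, AG-KO replicate 2 or 3, or NG-KO replicate 1, 2 or 4. The log2 fold changes in these settings were -0.81 to -0.70.

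The stretch of chromosome 4 from the start of Tmod1 to the end of Alad (46038935 to 62519918, 16.5 Mb) was looked at after these positions were seen, and called genes set its bounds, so the counts in it are a description. It holds 97 tested genes, of which 3 were called in edgeR (0.0775% of all genes), 8 in DESeq2 (0.957%) and 22 had an unadjusted p under 0.05 (9.27%). It is not the only such place, since in the 10 Mb of chromosome 6 from 120 Mb, where Eno2 lies, 27 of 119 tested genes had an unadjusted p under 0.05, with 1 called in edgeR and 4 in DESeq2. Besides Tmod1, Invs, Alad and Hdhd3, those called by DESeq2 include Slc44a1, Tmem246 and Frrs1l. The last of these, Frrs1l, which takes part in the assembly of AMPA-type glutamate receptors, had 24.1, 13.2, 21.6 and 11.7 FPKM in NG-KO and 38.5, 42.2 and 32.4 FPKM in WT mice (log2 fold change -1.08, SE 0.21, edgeR adjusted p = 0.129). AG-KO mice, at 33.8 to 38.4 FPKM, and Δ3102 mice, at 31.8 to 38.5 FPKM, overlapped WT mice. Within NG-KO mice Frrs1l was lower in replicates 2 and 4 than in replicates 1 and 3. Just before this stretch lies Igfbpl1, an insulin-like growth factor binding protein, which divided the NG-KO mice the same way, at 0.601, 0.103, 0.632 and 0.115 FPKM, against 2.10, 2.28 and 1.72 FPKM in WT mice (edgeR adjusted p = 0.320, DESeq2 adjusted p = 0.0422). Of these genes, Frrs1l, Slc44a1 and Tmem246 lie outside the naming rule and were chosen after their values were seen.

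Eno2 encodes the neuronal enolase of glycolysis and gave its promoter to the NSE-Cre transgene. It was higher in NG-KO mice, at 177, 181, 173 and 184 FPKM, against 140, 136 and 143 FPKM in WT mice (log2 fold change 0.37, SE 0.06, edgeR adjusted p = 0.0411). AG-KO mice, whose Cre has another promoter, ranged from 141 to 171 FPKM and Δ3102 mice from 136 to 148 FPKM, below all NG-KO mice, though neither difference from NG-KO mice passed (adjusted p = 0.145 and 0.0905). Eno2 was called in 9 of 22 other settings. The call was lost without any 1 of the 4 NG-KO, 3 Δ3102 or 3 WT mice, with no filter on low genes, and in limma with either pseudocount. The adjusted p rose to at most 0.249, while the log2 fold change stayed between 0.36 and 0.38. The RefSeq promoter of Eno2 (GRCm38.p6 chr6:124769624-124769923, minus strand), printed because it names the driver of the deletion, holds no TGACG on either strand:
Eno2: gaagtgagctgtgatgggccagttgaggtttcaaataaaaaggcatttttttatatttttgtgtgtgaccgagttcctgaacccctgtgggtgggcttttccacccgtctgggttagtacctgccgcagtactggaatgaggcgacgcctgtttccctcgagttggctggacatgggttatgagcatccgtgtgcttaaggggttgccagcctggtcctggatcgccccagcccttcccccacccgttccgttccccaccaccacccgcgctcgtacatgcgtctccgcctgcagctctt
How much of the Eno2 locus the NSE-Cre transgene carries is not given in the sources used here, and transcripts from such a copy would be counted with Eno2.

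Of 22 glycolysis genes tested, 5 had an unadjusted p under 0.05 in the higher direction, beside 4.57% of all genes, 0 in the lower, and 1, Eno2, was called, beside 0.0358%. Tpi1, triosephosphate isomerase, was at 194 to 222 FPKM in NG-KO and 168 to 181 FPKM in WT mice (adjusted p = 0.257), and Pgam1, phosphoglycerate mutase, at 173 to 210 and 161 to 173 FPKM in NG-KO and WT mice (adjusted p = 0.312). Aldoa, the most abundant of the list, overlapped, at 632 to 696 FPKM in NG-KO and 507 to 677 FPKM in WT mice. The median of the list was 0.09 on the log2 scale.

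For several called genes NG-KO mice were not alone. Adgrl1, the adhesion receptor latrophilin 1, had 53.5, 50.3, 48.9 and 51.6 FPKM in NG-KO and 24.7, 26.4 and 25.2 FPKM in WT mice (log2 fold change 1.017, SE 0.14, edgeR adjusted p = 0.0116). AG-KO mice had 50.6 to 56.5 FPKM, and their difference from NG-KO mice was -0.08 on the log2 scale (adjusted p = 0.799). Without any 1 of the 3 WT mice the adjusted p of Adgrl1 against WT mice rose above 0.05, to at most 0.0619. Pisd-ps1, a transcribed pseudogene of phosphatidylserine decarboxylase, had 52.4, 60.2, 53.5 and 55.6 FPKM in NG-KO and 22.98, 24.5 and 17.1 FPKM in WT mice (log2 fold change 1.37, SE 0.18, edgeR adjusted p = 0.0116). It was as high in Δ3102 mice, at 59.4 to 64.5 FPKM, and low in AG-KO mice, at 17.9 to 30.0 FPKM, from which NG-KO mice differed (log2 fold change 1.25, adjusted p = 0.00861). Its call was lost without WT replicate 3 (log2 fold change 1.22, adjusted p = 0.0518). Pisd-ps1 resembles other Pisd copies, so its reads may be split among them.

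H2afz and Zkscan3 were lower in NG-KO mice, and here AG-KO and Δ3102 mice also lay below every WT mouse. H2afz, the histone variant H2A.Z, had 30.5, 28.6, 29.6 and 38.7 FPKM in NG-KO and 60.5, 53.6 and 56.9 FPKM in WT mice (log2 fold change -0.83, SE 0.12, edgeR adjusted p = 0.0283). AG-KO mice had 26.8 to 38.5 FPKM and Δ3102 mice 38.4 to 43.0 FPKM. Zkscan3, a zinc finger repressor of autophagy genes, had 5.80, 5.32, 3.46 and 3.54 FPKM in NG-KO and 10.1, 9.18 and 10.3 FPKM in WT mice (log2 fold change -1.11, SE 0.18, edgeR adjusted p = 0.0411), against 4.77 to 6.40 FPKM in the AG-KO and Δ3102 mice together. No difference of NG-KO mice from AG-KO or Δ3102 mice passed in either gene (adjusted p from 0.275 to 0.952). H2afz was called in 11 and Zkscan3 in 8 of 22 other settings. Neither was called with no filter on low genes or with the 2 groups compared alone. Both calls were lost without any 1 of the WT or Δ3102 mice or without NG-KO replicate 2 or 3, that of H2afz also without NG-KO replicate 1, and that of Zkscan3 without NG-KO replicate 4 or AG-KO replicate 1, 2 or 3. The log2 fold changes stayed between -0.93 and -0.78 for H2afz and between -1.26 and -0.999 for Zkscan3.

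Dubr and Gm8098, both noncoding, were low in every mouse and passed the filter of 0.5 FPKM in 3 libraries only through the WT mice. Gapdh-ps15, given above, also passed only through the WT mice. Gm10284 reached 0.5 FPKM in fewer than 3 NG-KO mice, so it too passed only with the WT mice. Both of these Gapdh copies were called with no filter too. The differences of all of these therefore follow in part from the filter. Dubr, a long noncoding RNA on chromosome 16, had 0.221, 0.333, 0.262 and 0.323 FPKM in NG-KO and 1.48, 1.24 and 0.613 FPKM in WT mice (log2 fold change -1.95, SE 0.31, edgeR adjusted p = 0.0411). AG-KO and Δ3102 mice had at least 1.01 FPKM, and NG-KO mice differed from both (log2 fold changes -2.23 and -2.35, adjusted p = 0.00863 and 0.01001). Gm8098 had 0, 0, 0 and 4 counts in NG-KO and 75, 106 and 50 counts in WT mice. Its fitted log2 fold change of -5.87 depends on the prior count and is no bound (edgeR adjusted p = 0.0411). These calls held in few settings, 5 of 21 for Dubr and 4 of 21 for Gm8098. Both calls were lost with no filter on low genes and with the 2 groups compared alone, Gm8098's also with the filter applied over all 14 libraries, and limma lost Dubr's with either pseudocount and Gm8098's with a pseudocount of 1. They were also lost on leaving out WT replicate 1 or 2, any 1 of the Δ3102 mice, AG-KO replicate 2, 3 or 4 or NG-KO replicate 1, 2 or 3, for Dubr also NG-KO replicate 4, and for Gm8098 also WT replicate 3 or AG-KO replicate 1.

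Of the 20 oligodendrocyte and myelin genes listed, all averaged lower in NG-KO than in WT mice. Of the 20, 19 had an unadjusted p under 0.05 in that direction, beside 4.69% of all genes, and the median log2 fold change was -0.88, beside -0.01 over all genes. None passed the adjustment in edgeR, and DESeq2 called 7, all lower, beside 0.433% of all genes. Mal, a myelin and lymphocyte proteolipid, had 54.0, 40.1, 54.6 and 33.8 FPKM in NG-KO and 94.9, 145 and 66.2 FPKM in WT mice (log2 fold change -1.15, SE 0.28, edgeR adjusted p = 0.235, DESeq2 adjusted p = 0.00591). The 4 NG-KO mice all lay below the WT mice in Mal.

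The same was seen of Opalin, an oligodendrocyte membrane protein, at 5.57, 3.65, 6.13 and 5.33 FPKM in NG-KO and 9.28, 16.6 and 8.02 FPKM in WT mice (edgeR adjusted p = 0.228). Nkx6-2, a transcription factor of oligodendrocytes, had 1.79, 2.03, 1.87 and 1.63 FPKM in NG-KO and 4.43, 5.14 and 2.57 FPKM in WT mice (edgeR adjusted p = 0.246). In all, 11 of the 20 did not overlap between the groups, beside 11.1% of all genes. Sox10, a regulator of the whole lineage, was the least changed, at 7.71 to 10.4 FPKM in NG-KO and 6.78 to 14.5 FPKM in WT mice (log2 fold change -0.23, adjusted p = 0.824). Summed over the list, NG-KO mice had 566, 419, 582 and 412 FPKM, against 871, 1322 and 630 FPKM in WT mice. WT replicate 2 was highest and NG-KO replicates 2 and 4 were lowest. Without WT replicate 2 the members at an unadjusted p under 0.05 numbered 10 and the median log2 fold change was -0.52. With every other library left out in turn they numbered 16 to 19.

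The comparison with AG-KO mice takes no difference from WT mice. WT libraries still entered the fit that set the spread, and the choice of genes tested. All 20 myelin genes had an unadjusted p under 0.05 in the lower direction in NG-KO against AG-KO mice, beside 7.56% of all genes, with a median log2 fold change of -0.80 and 0 called. The count was 17 to 20 in all other settings, each library left out in turn included, and 20 with NG-KO and AG-KO mice fitted alone. Summed over the list, AG-KO mice had 637 to 1116 FPKM. Against Δ3102 mice, at 553 to 672 FPKM, the median was -0.31 and none had an unadjusted p under 0.05 in the lower direction. The NG-KO mice are the same in these comparisons and in that with WT mice.

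**Figure D4:**
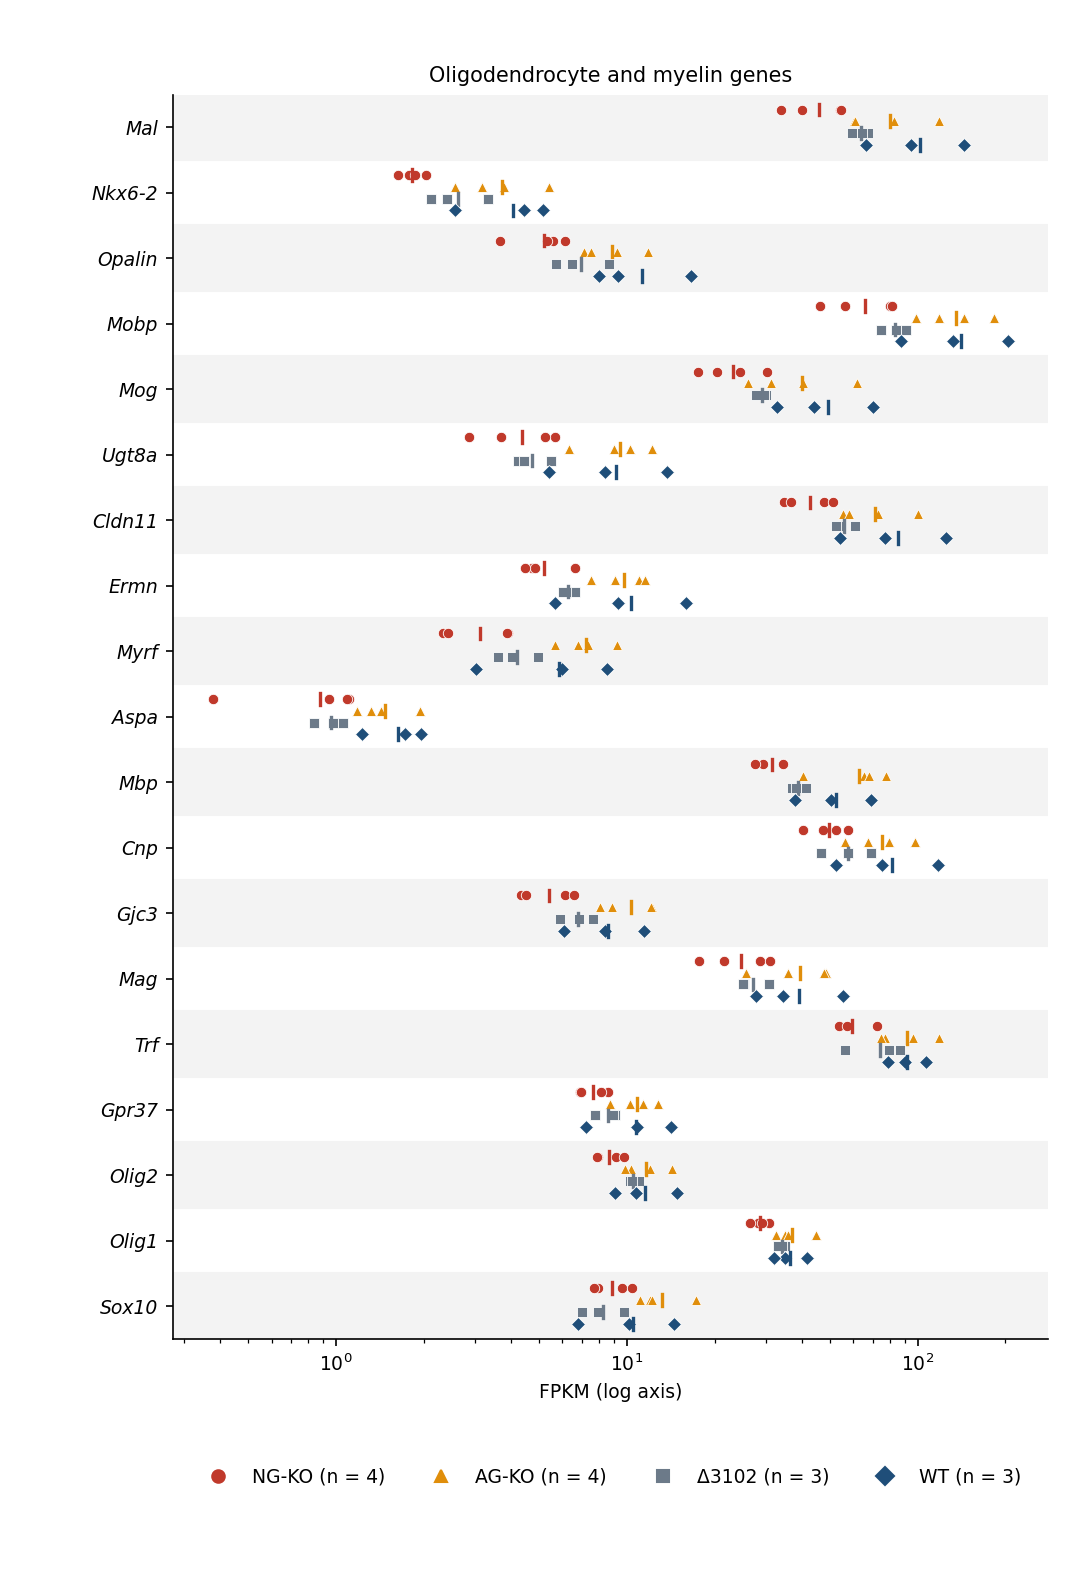
FPKM on a log axis of 19 of the 20 oligodendrocyte and myelin genes in each of the 14 libraries, in order of their log2 fold change between NG-KO and WT mice. Points are mice and short lines are group means. The NG-KO means lie left of the WT means in all 19 rows, and for Mal the 4 NG-KO mice lie between 33.8 and 54.6 FPKM, below the 3 WT mice.

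Of 10 genes of oligodendrocyte precursors 2 had an unadjusted p under 0.05, both lower, beside 4.69% of all genes, and the median log2 fold change was -0.08. One was Enpp6, a choline phosphodiesterase of newly forming oligodendrocytes, at 0.537, 0.256, 0.563 and 0.351 FPKM in NG-KO and 1.22, 1.68 and 0.799 FPKM in WT mice (log2 fold change -1.51, SE 0.36, edgeR adjusted p = 0.224, DESeq2 adjusted p = 0.0131). The other was Gpr17, a receptor of committed precursors, at 9.89 to 11.6 FPKM in NG-KO and 11.4 to 15.5 FPKM in WT mice (adjusted p = 0.423). Cspg5, the most abundant of the list, overlapped, at 20.4 to 25.4 FPKM in NG-KO and 18.7 to 25.8 FPKM in WT mice.

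Astrocyte genes had a median log2 fold change of -0.02 over 20 genes and 4 at an unadjusted p under 0.05, all lower, beside 4.69% of all genes. Apoe, the lipid carrier secreted by astrocytes, was at 348 to 440 FPKM in NG-KO and 471 to 504 FPKM in WT mice (log2 fold change -0.29, SE 0.09, adjusted p = 0.345). Gfap, the intermediate filament of astrocytes, had 94.6, 78.7, 89.7 and 61.1 FPKM in NG-KO and 102, 120 and 97.9 FPKM in WT mice (log2 fold change -0.38, SE 0.14, adjusted p = 0.416). Aqp4, the water channel of their end feet, was at 10.8 to 12.6 FPKM in NG-KO and 12.5 to 15.6 FPKM in WT mice, and Glul, glutamine synthetase, at 406 to 479 and 443 to 501 FPKM in NG-KO and WT mice. Of 25 tested genes of reactive astrocytes 1 had an unadjusted p under 0.05 in the higher direction, Cd44, and 3 in the lower. Over all genes these shares were 4.57% and 4.69%. Of the lower ones, Cp, ceruloplasmin, was at 0.701 to 1.04 FPKM in NG-KO and 1.16 to 1.59 FPKM in WT mice (adjusted p = 0.264), and Serping1, an inhibitor of complement, at 3.74 to 4.91 and 5.94 to 7.03 FPKM in NG-KO and WT mice (adjusted p = 0.320). Serpina3n, a serine protease inhibitor that reactive astrocytes raise, overlapped, at 29.6, 25.4, 32.9 and 23.9 FPKM in NG-KO and 31.2, 37.3 and 22.3 FPKM in WT mice (log2 fold change -0.11, SE 0.17, adjusted p = 0.897).

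Of other genes that the study followed, Pja1, a RING-type ubiquitin ligase, had 57.4, 62.0, 57.2 and 25.0 FPKM in NG-KO and 56.0, 45.9 and 61.4 FPKM in WT mice (log2 fold change -0.10, SE 0.28, adjusted p = 0.947). NG-KO replicate 4 stood apart from the other 3, near the AG-KO mice at 14.7 to 27.4 FPKM and the Δ3102 mice at 14.8 to 19.9 FPKM, and without it the log2 fold change was 0.13. Dbn1, which encodes the spine protein drebrin, was at 56.7 to 59.1 FPKM in NG-KO and 59.0 to 63.1 FPKM in WT mice (log2 fold change -0.08, SE 0.08, adjusted p = 0.803).

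Of 29 tested genes of synaptic vesicles and release, 11 had an unadjusted p under 0.05 in the higher direction, beside 4.57% of all genes, and 0 in the lower. The median log2 fold change was 0.12, and 0 were called in edgeR and 1 in DESeq2. Cplx1, complexin 1, which clamps and promotes vesicle fusion, had 338, 394, 364 and 390 FPKM in NG-KO and 287, 273 and 314 FPKM in WT mice (log2 fold change 0.36, SE 0.08, edgeR adjusted p = 0.180, DESeq2 adjusted p = 0.00893). Vamp2, the vesicle SNARE synaptobrevin 2, was at 323 to 367 FPKM in NG-KO and 274 to 300 FPKM in WT mice (adjusted p = 0.256), and Rab3a, a GTPase of vesicles, at 210 to 250 and 181 to 201 FPKM in NG-KO and WT mice (adjusted p = 0.332). Summed over the list, NG-KO mice had 3110 to 3439 FPKM, AG-KO mice 3018 to 3190, Δ3102 mice 3084 to 3186 and WT mice 2751 to 2980 FPKM, the lowest 3 of the 14 libraries. Against AG-KO mice the median was 0.02.

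Of 20 pan-neuronal genes, 6 had an unadjusted p under 0.05 in the higher direction, beside 4.57% of all genes, and 0 in the lower, and 1, Eno2, was called, beside 0.0358%. Uchl1, a deubiquitinase abundant in neurons, was at 261 to 329 FPKM in NG-KO and 224 to 239 FPKM in WT mice (log2 fold change 0.38, SE 0.09, edgeR adjusted p = 0.211, DESeq2 adjusted p = 0.0153). Syn1, synapsin 1, was at 171 to 176 FPKM in NG-KO and 147 to 165 FPKM in WT mice (adjusted p = 0.390). The most abundant, Stmn3, a regulator of microtubules, overlapped, at 373 to 455 FPKM in NG-KO and 336 to 381 FPKM in WT mice. The 6 became 3 without WT replicate 2 or without NG-KO replicate 2. Summed over the list, NG-KO mice had 2661 to 2922 FPKM and WT mice 2419 to 2552 FPKM.

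Genes of hippocampal principal cells had a median of 0.02 over 20, with 1 at an unadjusted p under 0.05 in each direction. Over all genes, 4.57% were higher and 4.69% lower at that p. Slc17a7, the vesicular glutamate transporter, was at 214 to 230 FPKM in NG-KO and 131 to 206 FPKM in WT mice (adjusted p = 0.531), and Pcp4, a calmodulin regulator of dentate gyrus and CA2, at 87.8 to 114 and 128 to 173 FPKM in NG-KO and WT mice (adjusted p = 0.448). Mpped1 varied most, at 52.9, 27.7, 7.82 and 29.9 FPKM in NG-KO and 22.2, 7.27 and 7.41 FPKM in WT mice, and Camk2a, the most abundant, was at 348 to 475 FPKM in NG-KO and 376 to 452 FPKM in WT mice. Of 20 interneuron genes 18 averaged higher, beside 8064 of all 16769 genes, with a median of 0.15. At an unadjusted p under 0.05 were 2, both higher, beside 4.57% of all genes. They were Gad1, which makes GABA, at 44.2 to 51.2 FPKM in NG-KO and 37.9 to 43.1 FPKM in WT mice (adjusted p = 0.388), and Nos1, neuronal nitric oxide synthase, at 4.86 to 7.41 FPKM in NG-KO and 2.71 to 4.04 FPKM in WT mice (adjusted p = 0.504). Somatostatin, Sst, overlapped, at 265 to 370 FPKM in NG-KO and 245 to 327 FPKM in WT mice.

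Of 41 genes of glutamate receptors and the postsynapse 3 had an unadjusted p under 0.05, all higher, beside 4.57% of all genes. Grin2d, an NMDA receptor subunit, led them, at 2.13, 2.71, 2.13 and 3.04 FPKM in NG-KO and 1.43, 1.28 and 1.93 FPKM in WT mice (log2 fold change 0.71, SE 0.18, edgeR adjusted p = 0.256, DESeq2 adjusted p = 0.0380). Among 20 genes of GABA receptors and inhibitory synapses 3 were higher and 5 lower at that p, beside 4.57% and 4.69%. Gabra2, a GABA-A receptor subunit, was at 5.44 to 13.7 FPKM in NG-KO and 4.08 to 5.44 FPKM in WT mice (adjusted p = 0.332), Gabbr1, of the GABA-B receptor, at 95.8 to 102 and 85.9 to 90.7 FPKM in NG-KO and WT mice (adjusted p = 0.331), and Slc12a2, a chloride importer, at 2.62 to 3.25 and 3.51 to 5.22 FPKM in NG-KO and WT mice (adjusted p = 0.345).

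Of 34 voltage-gated channels 5 were higher and 2 lower at an unadjusted p under 0.05, beside 4.57% and 4.69% of all genes. Cacna1i, a T-type calcium channel, had 7.28, 8.30, 8.30 and 9.01 FPKM in NG-KO and 7.72, 3.00 and 2.95 FPKM in WT mice (log2 fold change 0.86, SE 0.28, adjusted p = 0.353), with WT replicate 1 among the NG-KO mice. Of 30 genes of spine actin and myosin 2 were higher and 3 lower at that p, beside the same 4.57% and 4.69%. Itpka, a kinase that bundles actin in spines, was at 77.3 to 89.6 FPKM in NG-KO and 100 to 108 FPKM in WT mice (adjusted p = 0.323), and Actg1, a cytoplasmic actin, at 353 to 459 and 275 to 355 FPKM in NG-KO and WT mice (adjusted p = 0.363).

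GPR30 signals through G proteins to cAMP, MAP kinases and AKT, and through transactivation of the epidermal growth factor receptor. Of 43 genes of these pathways 6 had an unadjusted p under 0.05, all higher, beside 4.57% of all genes, none was called in edgeR or DESeq2, and the median log2 fold change was 0.08. Adcy3, an adenylyl cyclase, was at 9.38 to 11.95 FPKM in NG-KO and 8.01 to 9.61 FPKM in WT mice (log2 fold change 0.34, SE 0.11, adjusted p = 0.386). Hbegf, the ligand released in that transactivation, was at 2.25 to 2.73 FPKM in NG-KO and 1.70 to 2.39 FPKM in WT mice (adjusted p = 0.424), and Prkar2a, a regulatory subunit of protein kinase A, at 7.71 to 9.35 and 7.09 to 7.63 FPKM in NG-KO and WT mice (adjusted p = 0.438). The list of steroid hormone receptors, Gper1 included, had 0 of 9 tested genes at an unadjusted p under 0.05. Of 24 immediate early genes, which neurons induce upon activity, 1 was higher at that p, Npas4, at 3.43, 2.11, 3.67 and 3.96 FPKM in NG-KO and 1.73, 2.32 and 1.40 FPKM in WT mice (adjusted p = 0.323). Arc, an activity-induced regulator of synapses and the most abundant of that list, overlapped, at 16.3 to 34.5 FPKM in NG-KO and 21.6 to 31.9 FPKM in WT mice. Bdnf, a neurotrophin, was at 2.70 to 4.19 FPKM in NG-KO and 3.68 to 4.96 FPKM in WT mice (adjusted p = 0.546).

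Of 20 endothelial and mural genes 16 averaged lower, beside 8705 of all 16769 genes, with a median of -0.20. At an unadjusted p under 0.05 in that direction were 3, beside 4.69% of all genes. Kcnj8, a potassium channel of pericytes, had 1.09, 0.870, 0.747 and 1.03 FPKM in NG-KO and 1.59, 1.40 and 1.79 FPKM in WT mice (adjusted p = 0.283), and Tek, the angiopoietin receptor, was at 2.24 to 3.04 FPKM in NG-KO and 3.73 to 4.17 FPKM in WT mice (adjusted p = 0.320). Of 11 meningeal genes tested 3 had an unadjusted p under 0.05, all lower, beside 4.69% of all genes, with a median of -0.37. Among the 3 was Col1a1, a fibrillar collagen, at 1.24 to 1.56 FPKM in NG-KO and 1.77 to 3.19 FPKM in WT mice (adjusted p = 0.463). Genes of neighboring brain regions had a median of -0.04 over 17, with 0 at that p. Red blood cell genes had a median of -1.06 over 8, with 5 at an unadjusted p under 0.05, all lower, and 3 called by DESeq2, beside 4.69% and 0.433% of all genes. Hba-a2, an alpha globin, had 68.5, 84.4, 132 and 153 FPKM in NG-KO and 158, 334 and 265 FPKM in WT mice (edgeR adjusted p = 0.331, DESeq2 adjusted p = 0.0461), though Hba-a1 and Hba-a2 are near-identical and can share reads. Without WT replicate 2 the 5 became 3. Against AG-KO mice the log2 fold changes of Hba-a1 and Hba-a2 were 0.20 and 0.16 (adjusted p = 0.800 and 0.861).

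The 19 tested liver genes had a median of -1.99, 3 had an unadjusted p under 0.05, all lower, beside 4.69% of all genes, and 18 did not overlap, beside 11.1%. Of those 3, Trf (log2 fold change -0.63, SE 0.19, edgeR adjusted p = 0.328) and Ass1 (-0.66, SE 0.19, adjusted p = 0.305) are the members that brain cells also express. Cyp2e1, a liver cytochrome, had 0.244, 6.56, 6.35 and 9.73 FPKM in NG-KO and 17.4, 23.1 and 32.9 FPKM in WT mice (adjusted p = 0.503). Against AG-KO mice the median of the liver list was 1.70. Skeletal muscle and testis lists had medians of -1.23 and -1.06, with no gene at an unadjusted p under 0.05. Tnp2, a protein of sperm chromatin, ranged from 0.0001 to 27.6 FPKM in NG-KO and from 0.652 to 55.2 FPKM in WT mice, Odf1, of the sperm tail, from 0.0001 to 6.35 and from 0.0001 to 13.6 FPKM in NG-KO and WT mice, and Gapdhs, the sperm form of Gapdh, from 0.347 to 6.26 and from 0.453 to 12.1 FPKM in NG-KO and WT mice. The choroid plexus list had a median of -0.56, and its marker Ttr, transthyretin, had 1.81, 42.1, 39.3 and 30.2 FPKM in NG-KO and 76.1, 114 and 72.0 FPKM in WT mice (adjusted p = 0.744). Heat shock and endoplasmic reticulum stress genes had a median of -0.18 over 22, with 4 at an unadjusted p under 0.05, all lower, beside 4.69% of all genes, among them the chaperone Hspa5, at 29.1 to 38.3 FPKM in NG-KO and 39.4 to 54.8 FPKM in WT mice (adjusted p = 0.340). Hsp90ab1, the most abundant of that list, was at 622 to 647 FPKM in NG-KO and 586 to 647 FPKM in WT mice. Microglia, mitochondrial and neurotrophin lists had medians of -0.006, 0.064 and -0.002. In these 3 lists 1 gene had an unadjusted p under 0.05, in the lower direction, beside 4.69% of all genes. It was the microglia gene Tmem119, at 6.98 to 7.96 FPKM in NG-KO and 9.16 to 10.4 FPKM in WT mice.

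**Figure D5:**
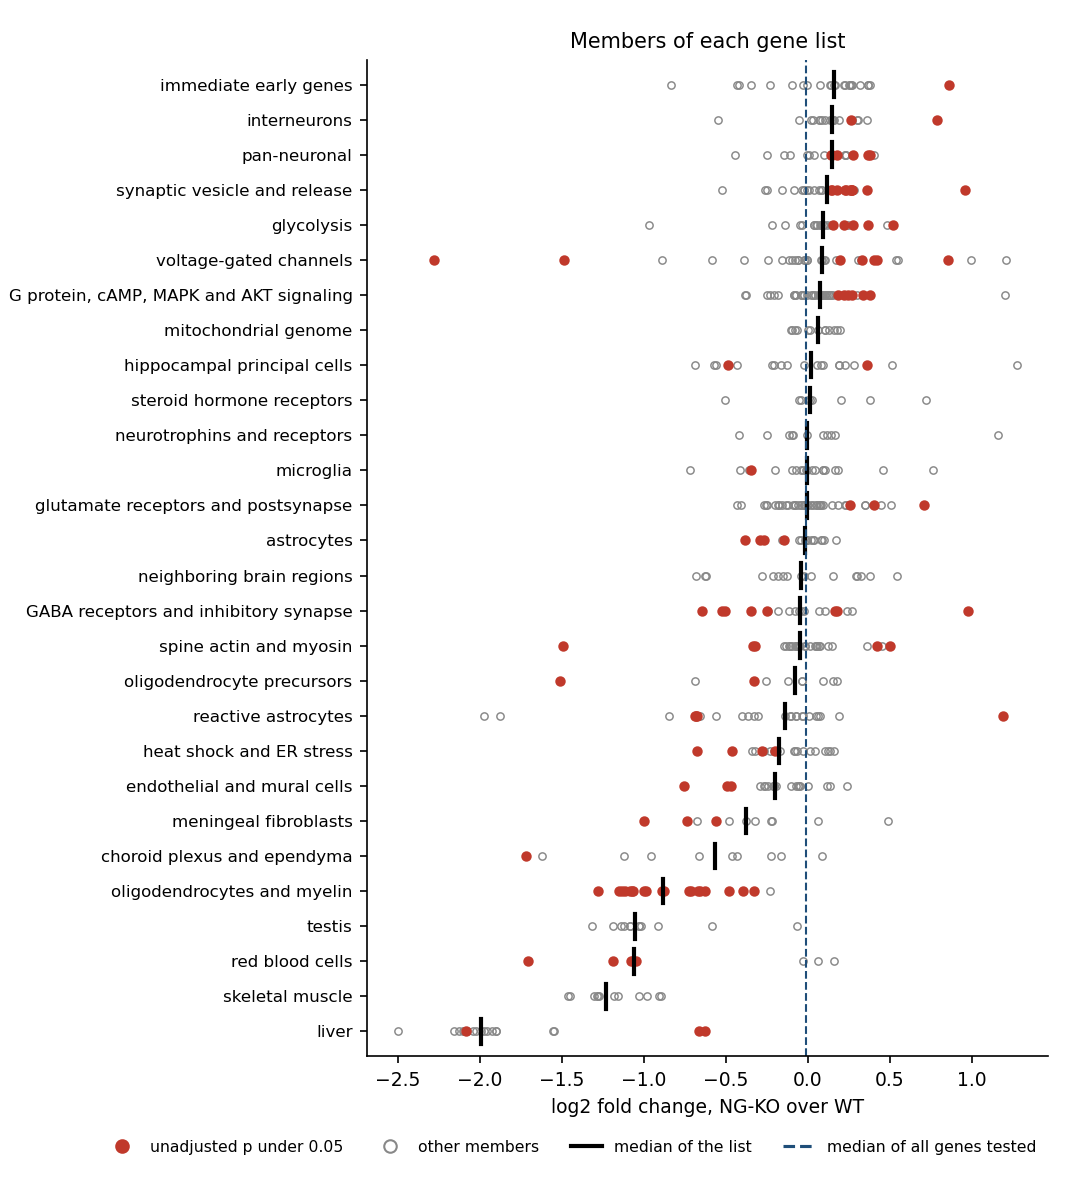
Log2 fold change, NG-KO over WT, of each tested member of 28 gene lists, with members at an unadjusted p under 0.05 filled and the median of each list as a black line. The dashed line is the median of all genes tested, -0.01. The myelin list lies to its left as a whole, at a median of -0.88, and the liver, muscle, testis and red blood cell lists lie furthest to the left.

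Some genes called by DESeq2 and not by edgeR are given here or above. They had no overlap in FPKM and a mean of at least 1 FPKM in the higher group. Predicted gene models, such as symbols of Gm and digits, were left out, and at most 10 a direction were kept by log2 fold change. Among the 10 so kept in the higher direction, 3 were histone genes. Their main transcripts carry no poly(A) tail and are selected against in such libraries. Hist1h2bj had 3.05, 2.45, 1.12 and 1.68 FPKM in NG-KO and 0.0702, 0.0321 and 0.0001 FPKM in WT mice (edgeR adjusted p = 0.0688, DESeq2 adjusted p = 2.06e-05). Hist1h2bk had 3.495, 1.83, 6.12 and 2.77 FPKM in NG-KO and at most 0.354 FPKM in WT mice, and Hist2h3c1 at least 0.589 FPKM in NG-KO and at most 0.4996 FPKM in WT mice. The value of 0.0001 is the floor of the deposited table. H2B and H3 genes are near-identical to their relatives and can share reads. In Hist1h2bj and Hist1h2bk all 4 NG-KO mice also lay above all AG-KO and Δ3102 mice (highest 0.722 FPKM), although neither difference passed.

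Skida1, a gene of the SKI and DACH domain family, had 4.01, 2.15, 2.79 and 2.17 FPKM in NG-KO and 0.134, 0.0925 and 0.0530 FPKM in WT mice (log2 fold change 4.87, SE 1.001, edgeR adjusted p = 0.138, DESeq2 adjusted p = 8.40e-08), with 0.102 to 2.59 FPKM in AG-KO and 1.19 to 2.98 FPKM in Δ3102 mice. Ube2f, which conjugates NEDD8, was at 3.35 to 5.36 FPKM in NG-KO and 1.09 to 1.48 FPKM in WT mice (log2 fold change 1.76, SE 0.33, edgeR adjusted p = 0.113, DESeq2 adjusted p = 1.35e-05). It was at 1.08 to 3.39 FPKM in AG-KO and 2.73 to 4.43 FPKM in Δ3102 mice. Pcdhgb8, a γ-protocadherin pseudogene that shares its last exons with the rest of its cluster, had 17.4, 17.2, 10.2 and 8.27 FPKM in NG-KO and 0.303, 0.309 and 0.345 FPKM in WT mice, but also 13.7 FPKM in Δ3102 replicate 1 and 5.15 FPKM in AG-KO replicate 3. Hbq1a, a globin-like gene, was at 1.51 to 3.31 FPKM in NG-KO and 0.0854 to 0.176 FPKM in WT mice (DESeq2 adjusted p = 0.00893), opposite to the adult globin genes. Bambi-ps1, a processed pseudogene, was at 0.940 to 1.69 FPKM in NG-KO and 0.259 to 0.587 FPKM in WT mice, with 1.04 to 1.35 FPKM in AG-KO and 0.455 to 0.895 FPKM in Δ3102 mice. Skida1, Pcdhgb8, Hbq1a and the histone genes above passed the filter of 0.5 FPKM in 3 libraries only through the NG-KO mice. Bambi-ps1, Gpr146 and Cd44 reached 0.5 FPKM in fewer than 3 WT mice, so they too passed only with the NG-KO mice. The differences of all these genes therefore follow in part from the filter.

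In the lower direction, Pck1 of gluconeogenesis (log2 fold change -2.39), Fbp1 of the same pathway (-1.94), the methyltransferase Inmt (-2.10) and the plasma protease inhibitor Serpinf2 (-1.97) averaged lower, and NG-KO replicate 1 was the lowest of the 7 mice in all 4. Against AG-KO mice their log2 fold changes were -0.14 to 0.49 (adjusted p from 0.660 to 0.964). The part of the liver transcripts given above in these values was not tested. Aqp1, the water channel of the choroid plexus, was at 0.684 to 1.79 FPKM in NG-KO and 2.80 to 3.69 FPKM in WT mice (DESeq2 adjusted p = 0.00440). It was at 0.811 to 1.38 FPKM in AG-KO and 3.22 to 7.99 FPKM in Δ3102 mice. C1ra, a complement protease, was at 0.180 to 0.778 FPKM in NG-KO and 1.41 to 1.62 FPKM in WT mice, and Ly96, the partner of Toll-like receptor 4, at 0.354 to 1.019 and 1.53 to 1.97 FPKM in NG-KO and WT mice. In AG-KO and Δ3102 mice C1ra was at 0.408 to 0.906 and 0.969 to 1.45 FPKM. Ly96 was at 0.358 to 0.726 and 0.763 to 1.08 FPKM there. Both genes, and Igfbpl1, Alas2 and Enpp6 above, reached 0.5 FPKM in fewer than 3 NG-KO mice. They passed the filter only with the WT mice, and their differences follow in part from it.

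In the direct comparison with AG-KO mice, edgeR called 25 genes (0.149%), 10 higher (0.0596%) and 15 lower (0.0895%) in NG-KO mice, and 2430 had an unadjusted p under 0.05 (14.5%), of which 1163 were higher (6.94%) and 1267 lower (7.56%). With Δ3102 mice it called 11 (0.0656%), 7 higher (0.0417%) and 4 lower (0.0239%), and 1043 had an unadjusted p under 0.05 (6.22%), of which 489 were higher (2.92%) and 554 lower (3.3%). Single libraries moved these counts. The 25 became 316 when AG-KO replicate 2 was left out, 14 without AG-KO replicate 3 or Δ3102 replicate 1, 13 without NG-KO replicate 3 or WT replicate 1, and 16 without NG-KO replicate 2 or WT replicate 3. The 11 became 7 without NG-KO replicate 3. Of the 13 genes called against WT mice, 7 were called in both of these comparisons too, namely Gm13394, Gapdh-ps15, Gm10284, Alad, Invs, Dubr and Gm8098. The 3 comparisons use the same NG-KO mice.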

How the data were processed

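Whole hippocampus of 14 female mice was sequenced with unique molecular identifiers, dUTP strand marking and paired reads. The submitters' processing notes list cutadapt 1.9, HISAT2 2.0.4, StringTie 1.3.4d, UMI-tools, DESeq2 and edgeR. The authors deposited a raw count of each gene in each library, whole and without scaling, and the counting program is not given in the sources used here. The deposited FPKM of each gene came from StringTie, run by the authors on GRCm38, with 0.0001 entered where there was no signal. All 55450 identifiers are in GENCODE vM21, 94.8% with the same start and end, and coordinates were taken from it.

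Counts of the 14 libraries were fitted in 1 model with 1 mean per genotype in edgeR 4.0.16 (TMM, quasi-likelihood test, R 4.3.3), with Benjamini-Hochberg adjustment over the 16769 genes tested, two-sided, threshold 0.05. SE is the log2 fold change over the square root of F. DESeq2 1.42.0 and limma 3.58.1, on log2(FPKM + 0.1) and log2(FPKM + 1), were alternatives, with other filters, median-ratio scaling, the 2 groups alone, the replicate number as a block and each library left out. The tested genes held 99.5% to 99.6% of counts, and no 2 libraries of the 91 pairs were identical. Each p sets a group difference against the spread between mice of a genotype, estimated over all 14 libraries. The edgeR and DESeq2 fits were tested on simulated data, and the limma fit was not.

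Named genes were those the study followed with Eno2, all genes called, up to 10 a direction called by DESeq2 alone without overlap and at a mean of at least 1 FPKM, and for each of 28 lists the 3 members of smallest p and the most abundant. Predicted gene models were left out of those called by DESeq2 alone. The members and lists were chosen with earlier results of these data known. Gapdh copies were found with BLAST 2.17.0. Some genes that this rule names are not reported here.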

Additional observations from a re-analysis of the deposited data

Results flagged for a closer look

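In NG-KO mice, 9 of 158 genes searched had a mouse that stood apart from the other 3, and chance picks about 1 in 20 groups. Replicate 1 stood below the others in Tmem246, at 21.73 FPKM, and above them in Neu4, a sialidase of the oligodendrocyte lineage, at 2.388 FPKM. Replicate 2 stood below in Slc17a7, at 214.4 FPKM, and in Lef1, at 0.3615 FPKM. Replicate 4 stood above in Gm8098, at 0.04629 FPKM, in Ly96, at 1.019 FPKM, and in Gm12537, at 8.064 FPKM, and below in Pja1, at 24.96 FPKM, and in Mylpf, a muscle myosin light chain listed at 0.0001 FPKM.

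For several genes the difference between NG-KO and WT mice was set apart from that of the other genotypes by a direct test in edgeR. NG-KO mice differed from AG-KO mice in Gm13394 (log2 fold change 3.547), Gapdh-ps15 (-5.143), Gm10284 (-4.231), Alad (1.501), Hdhd3 (1.9), Invs (1.006), Pisd-ps1 (1.245), Dubr (-2.225) and Gm8098 (-5.636). They differed from Δ3102 mice in Gm13394 (3.819), Gapdh-ps15 (-4.766), Gm10284 (-4.990), Alad (1.528), Invs (1.197), Dubr (-2.346) and Gm8098 (-6.015). The values of Gm8098 depend on the prior count.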

How the results depend on the processing

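Of 3627 log2 fold changes of 158 genes under the alternatives, 3452 kept their direction and side of the threshold, 95 lost and 52 gained a call, and 28 in 13 genes changed sign. The cause was not tested. Total counts ran from 44527024 to 62669865 over the 14 libraries.

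Calls between NG-KO and WT mice (13) were 8 with no filter on low genes, 157 in DESeq2 and 7 to 15 with each library left out. Those between NG-KO and AG-KO mice (25) were 15 with no filter, 435 in DESeq2, 13 with the 2 groups alone and 13 to 316 with each library left out. Those between NG-KO and Δ3102 mice (11) were 66 in DESeq2, 6 with the 2 groups alone and 7 to 15 with each library left out. With each library left out, genes at an unadjusted p under 0.05 against WT mice numbered 10 to 19 for myelin, 3 to 7 for pan-neuronal and 3 to 5 for red blood cell genes. These list counts were added after seeing the data.

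Replicate numbers do not pair the mice, since same-numbered NG-KO and WT mice correlated at -0.166, -0.314 and 0.014 in their deviations. Differently numbered mice correlated at -0.26 to 0.462, highest for NG-KO replicate 2 with WT replicate 1. With the replicate block, calls were 5, 11 and 6 against WT, AG-KO and Δ3102 mice, and 3 pan-neuronal genes had an unadjusted p under 0.05. Under the block the log2 fold change against WT mice turned to -0.020 for Gapdh, 2.613 for Tnp2, 0.189 for Gapdhs, 2.429 for Odf1, 0.253 for Arc and 0.010 for Camk2a.

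Other changes of sign against WT mice were in genes without a call. Arc turned to 0.006 with no filter or with the 2 groups alone and to 0.000 with median-ratio scaling or DESeq2. With each library left out, log2 fold changes ranged from -0.837 to 0.243 for Gper1, from -0.045 to 0.152 for Gapdh, from -0.207 to 0.131 for Pja1, from -0.292 to 0.077 for Serpina3n, from -0.470 to 0.085 for Sox10, from -0.010 to 0.206 for Cspg5, from -0.102 to 0.000 for Glul, from -0.185 to 0.174 for Arc, from -0.001 to 0.089 for Hsp90ab1 and from -0.115 to 0.048 for Camk2a.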
